A study of Gallus gallus and Anas platyrhynchos and Coturnix japonica with 43 samples.

Results

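STEAP3 encodes a metalloreductase of the six-transmembrane epithelial antigen of the prostate (STEAP) family, and it was measured by 1 of the 19200 spots of a chicken cDNA array, a single clone, as 1 of 6428 named genes. The gene was taken by its annotated symbol, and it was selected on its log2 ratios in liver and hypothalamus, where the liver minus hypothalamus difference was large in turkey and chicken and flat in quail and duck. Values of the liver and hypothalamus arrays of these 4 birds are therefore described without a test. STEAP3 differences were tested between chicken breast muscle and abdominal fat and between the livers of kestrel and sparrow, whose arrays did not enter that choice.

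In the transferrin cycle, iron-loaded transferrin binds its receptor and is taken into endosomes, where acid releases the ferric iron. STEAP3 sits in the endosome membrane and reduces that iron to the ferrous form, which the divalent metal transporter SLC11A2 carries into the cytosol. In mouse, loss of STEAP3 impairs iron uptake by red cell precursors, and the gene is also expressed in liver, the main site of transferrin synthesis and iron storage.

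RNA of 1 tissue sample labelled with Cy3 was hybridised on each of 43 arrays together with a Cy5-labelled pool of chicken liver, fat, muscle and hypothalamus RNA. The 12 groups were liver of White turkey (4 arrays), Japanese quail (4) and duck (4), of American kestrel and Tree sparrow (3 each) and of chicken (4), hypothalamus of turkey, quail and duck (3 each) and of chicken (4), and chicken breast muscle and abdominal fat (4 each). The chicken liver, muscle and fat were those of 6-week-old control broiler cockerels of a Ross x Cobb cross, and the hypothalamus that of 9-week-old males of a line selected for leanness, so chicken liver and hypothalamus also differ in line and age. No age of the sampled birds was found in the labels for the other species; kestrels and sparrows came from captive colonies. Muscle and fat RNA was purified on CsCl gradients, and liver and chicken hypothalamus RNA on RNeasy columns. Values are log2 ratios to the pool, likely sample over reference, centred on the median of each array, so 0 is the ratio of the median spot. The RNA of the other birds met chicken DNA: between species, less transcript and poorer hybridisation cannot be told apart, and the same holds for the size of a tissue difference within another bird. In whole tissue, fewer cells of a type and less RNA per cell cannot be told apart either.

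The labelled tissues were checked against marker lists. The log2 summed ratio of 12 hepatocyte markers was 3.82 to 4.48 in turkey liver, 3.70 to 4.94 in quail liver, 2.94 to 3.87 in duck liver and 4.28 to 4.65 in chicken liver. It was 2.29 to 2.54 in kestrel liver and 2.04 to 2.80 in sparrow liver, inside the 1.50 to 2.95 of the groups that were not liver, so hepatocyte markers did not set these livers apart on the chicken array. 3 arrays went against their labels: skeletal muscle markers (6 of 8 measured) summed to 4.32 on sparrow liver replicate 1 and to 1.40 on chicken breast muscle replicate 4, against 3.75 to 4.09 on the remaining 3 breast muscle arrays, and neuronal markers (7 of 9 measured) summed to 2.28 on duck hypothalamus replicate 3, against 3.20 and 3.67 on the other duck hypothalami. A further array, quail liver replicate 2, had a neuronal sum of 3.33, against 0.92 to 2.62 on the other livers, and also the highest hepatocyte sum of the quail livers (4.94). STEAP3 differences and named calls that rest on these 4 arrays are also given without them.

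STEAP3 was well above the median spot in chicken liver, moderately above it in turkey liver, and far below it in every other group. In turkey liver its log2 ratio was 0.33, 0.27, 0.63 and 0.45 on the 4 arrays, a mean of 0.42 ± 0.16 (SD, n = 4). In quail liver it was -1.06, -1.12, -1.70 and -0.59, a mean of -1.12 ± 0.45 (SD, n = 4). All 4 turkey livers were above 0 and all 4 quail livers below it. In duck liver it was -1.37, -1.80, -2.01 and -2.15, a mean of -1.83 ± 0.34 (SD, n = 4). In kestrel liver it was -1.91, -2.52 and -1.85, a mean of -2.09 ± 0.37 (SD, n = 3), and in sparrow liver -2.14, -1.40 and -1.10, a mean of -1.55 ± 0.53 (SD, n = 3). These 10 livers were all below every turkey liver, and the lowest sparrow value came from the array with high muscle markers. In chicken liver the log2 ratio was 0.73, 1.11, 1.56 and 0.93, a mean of 1.08 ± 0.36 (SD, n = 4), and the lowest chicken liver lay above the highest turkey liver.

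The hypothalami were low in all 4 birds. Turkey hypothalamus had log2 ratios of -1.90, -2.21 and -3.42, a mean of -2.51 ± 0.81 (SD, n = 3), and the value of replicate 3 was the lowest of all 43 arrays. Quail hypothalamus had -1.56, -1.45 and -1.69, a mean of -1.57 ± 0.12 (SD, n = 3), the tightest group. Duck hypothalamus had -0.89, -2.44 and -2.25, a mean of -1.86 ± 0.85 (SD, n = 3), with replicate 1 apart from the other two. Chicken hypothalamus had -2.03, -1.98, -2.45 and -2.38, a mean of -2.21 ± 0.24 (SD, n = 4). The remaining chicken tissues were as low: breast muscle had -2.34, -1.96, -1.28 and -2.11, a mean of -1.92 ± 0.46 (SD, n = 4), and abdominal fat had -2.49, -3.00, -2.32 and -1.46, a mean of -2.32 ± 0.64 (SD, n = 4).

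**Figure D1:**
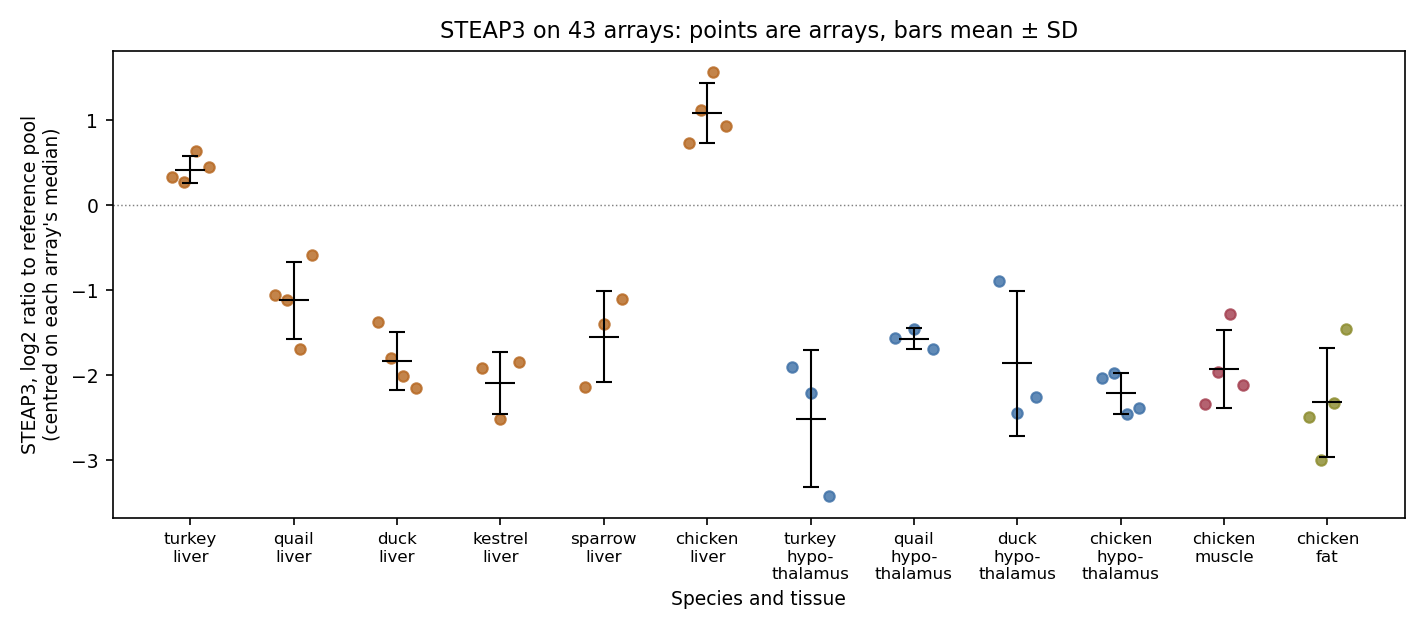
Log2 ratio of STEAP3 to the chicken reference pool, centred on each array's median, on 43 arrays of 12 groups of species and tissue; points are arrays, the cross bar is the mean and the whiskers 1 SD. Chicken liver (mean 1.08) and turkey liver (mean 0.42) stand above 0, and the other 35 arrays lie between -3.42 and -0.59.

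In order of their means, chicken liver and turkey liver differed by 0.67 and did not overlap, as for 1.9% of all genes lower in turkey. Turkey liver and quail liver differed by 1.54 and did not overlap, and the share of all genes was not counted there. The arrays of these livers chose the gene, so both gaps are description. Below turkey liver the order was quail liver, sparrow liver, quail hypothalamus, duck liver, duck hypothalamus, chicken breast muscle, kestrel liver, chicken hypothalamus, chicken abdominal fat and turkey hypothalamus. Each neighbouring pair of these 10 groups overlapped, with gaps of 0.02 to 0.43, each smaller than the larger SD of its pair. The SD of STEAP3 within a group was smaller than that of the median gene in 8 groups and larger in 4, with its extremes at 0.12 in quail hypothalamus (median gene 0.52) and 0.85 in duck hypothalamus (median gene 0.57).

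The place of STEAP3 among the 6428 genes of the same array does not change with the centring or scaling of a whole array. Its ratio was above that of 64.8% to 80.9% of genes on the turkey liver arrays, 3.14% to 24.0% on quail liver, 0.716% to 2.37% on duck liver, 0.653% to 2.60% on kestrel liver, 0.156% to 14.7% on sparrow liver and 94.2% to 99.1% on chicken liver. On the 12 arrays of chicken hypothalamus, muscle and fat it was above only 0.062% to 1.46% of genes, so STEAP3 had one of the lowest ratios on each of them. Of the livers outside chicken and turkey, quail replicate 4 stood highest.

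**Figure D2:**
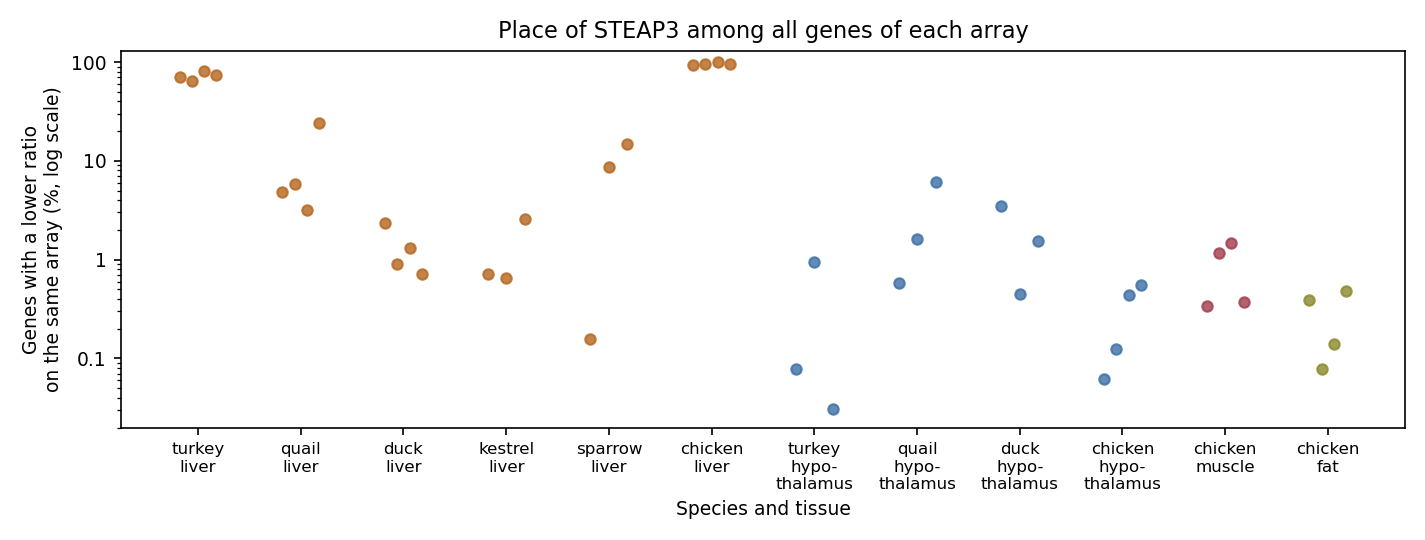
Percentage of the 6428 genes of the same array whose log2 ratio was lower than that of STEAP3, on a log scale, for 43 arrays of 12 groups; points are arrays. Chicken liver reaches 94.2% to 99.1% and turkey liver 64.8% to 80.9%, while duck liver stays at 0.716% to 2.37%.

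The comparison of liver with hypothalamus asks how tissue differences read on a chicken array in other birds. STEAP3 was higher in liver by 2.93 on the log2 scale in turkey (SE 0.37), a 7.61-fold difference, and the groups did not overlap. In quail the difference was 0.45 (SE 0.37), 1.37-fold, with 9 of 12 pairs of arrays higher in liver, and in duck it was 0.03 (SE 0.37), 1.02-fold, with 8 of 12 pairs higher; in both birds the groups overlapped. Without duck hypothalamus replicate 3 the duck difference was -0.17, and without replicate 1 it was 0.52; without quail liver replicate 2 the quail difference stayed at 0.45. In chicken it was 3.29 (SE 0.35), 9.81-fold, with no overlap. Set against the chicken difference it was -0.37 in turkey, -2.84 in quail and -3.26 in duck (SE 0.51 each), and these values chose the gene, so no test is attached. Liver above hypothalamus without overlap was seen for 2.69% of all genes in turkey and 3.48% in chicken. Among 6428 genes ranked from the most liver-high, STEAP3 came 6th in turkey, 1040th in quail, 3009th in duck and 5th in chicken.

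STEAP3 was likewise higher in chicken liver than in breast muscle by 3.01 (SE 0.35), 8.04-fold, or 2.94 without muscle replicate 4, and higher than in abdominal fat by 3.40 (SE 0.35), 10.6-fold. The groups did not overlap in either comparison, as was the case for 3.52% of all genes higher than in muscle and 3.3% higher than in fat. It ranked 10th against muscle and 3rd against fat, and these comparisons share the chicken liver arrays with the one above. Breast muscle and abdominal fat did not differ detectably: the difference was 0.39 (SE 0.35, 95% interval -0.30 to 1.09), limma's adjusted p was 0.999 and the exact two-sided permutation p 0.343 with 0.0286 the smallest possible. Muscle was higher in 12 of 16 pairs of arrays, and without muscle replicate 4 the difference was 0.46. On the arrays of both tissues STEAP3 was above at most 1.46% of genes, and whether ratios this low can show a difference was not tested.

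Between species, STEAP3 in liver was below chicken liver by a log2 difference of -0.67 (SE 0.35) in turkey, -2.20 (SE 0.35) in quail, -2.91 (SE 0.35) in duck, -3.18 (SE 0.37) in kestrel and -2.63 (SE 0.37) in sparrow. Without sparrow replicate 1 the sparrow difference was -2.34, and without quail liver replicate 2 the quail difference was -2.20. None of the 5 livers overlapped chicken liver; this held for 1.9% of all genes lower in turkey, 3.05% in quail, 4.15% in duck, 5.76% in kestrel and 4.25% in sparrow. Only 2 of 6428 genes had a lower difference than STEAP3 in duck and 2 in kestrel. In hypothalamus the species were closer: the difference from chicken was -0.30 in turkey, 0.64 in quail and 0.35 in duck (SE 0.37 each). With arrays scaled to an equal median absolute deviation these differences were 0.53, 1.25 and 1.36. STEAP3 was near the bottom of every hypothalamus array, above 0.031% to 6.16% of genes, and whether ratios this low can show a difference was not tested. In the reported fit quail did not overlap chicken, and each of its hypothalami was higher, as for 2.66% of all genes. The turkey difference turned to 0.16 without turkey hypothalamus replicate 3, and the duck difference to -0.14 without duck hypothalamus replicate 1; without duck hypothalamus replicate 3 it was 0.54. The livers of kestrel and sparrow, both set far below chicken, differed from each other by -0.54 (SE 0.40, 95% interval -1.35 to 0.26), with a limma adjusted p of 0.998 and an exact two-sided permutation p of 0.3, where 0.1 is the smallest that 3 against 3 arrays can give. Without sparrow replicate 1 the difference was -0.84. STEAP3 was above 0.653% to 2.60% of genes on the kestrel arrays and 0.156% to 14.7% on the sparrow arrays. Whether such low ratios can show a difference was not tested here either.

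The 12 hepatocyte markers, among them albumin, fibrinogen chains and transthyretin, give the liver difference of each bird a scale. Their liver minus hypothalamus difference had a median of 2.10 in turkey (0.68 to 2.97), 1.56 in quail (0.51 to 4.03), 0.81 in duck (0.28 to 1.88) and 2.42 in chicken (0.57 to 3.31). STEAP3 lay above 10 of the 12 markers in turkey and 11 in chicken, and below all 12 in quail and in duck. STEAP3 was chosen on this difference, so its place among the markers is description. In limma 5 markers were higher in liver in turkey, 5 in quail, 0 in duck and 9 in chicken, against 0.513%, 0.498%, 0% and 1.14% of all genes called higher in these birds. Of duck genes, 347 (5.4%) had an unadjusted p under the threshold of 0.05 and 0 an adjusted one. Of the livers against chicken liver, the marker median was -0.27 in turkey, -0.29 in quail, -1.26 in duck, -2.05 in kestrel and -2.03 in sparrow. STEAP3 was lower than all 12 markers in quail, duck and kestrel, and 3 markers lay below it in turkey and 3 in sparrow. Without sparrow replicate 1 the sparrow median was -1.85, and 3 markers still lay below STEAP3; without duck hypothalamus replicate 3 the duck median against hypothalamus was 0.77, with STEAP3 below all 12. Without quail liver replicate 2 the quail median was 1.32 against hypothalamus, with 3 markers called and STEAP3 below all 12, and -0.50 against chicken liver, where 1 marker then lay below STEAP3.

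**Figure D3:**
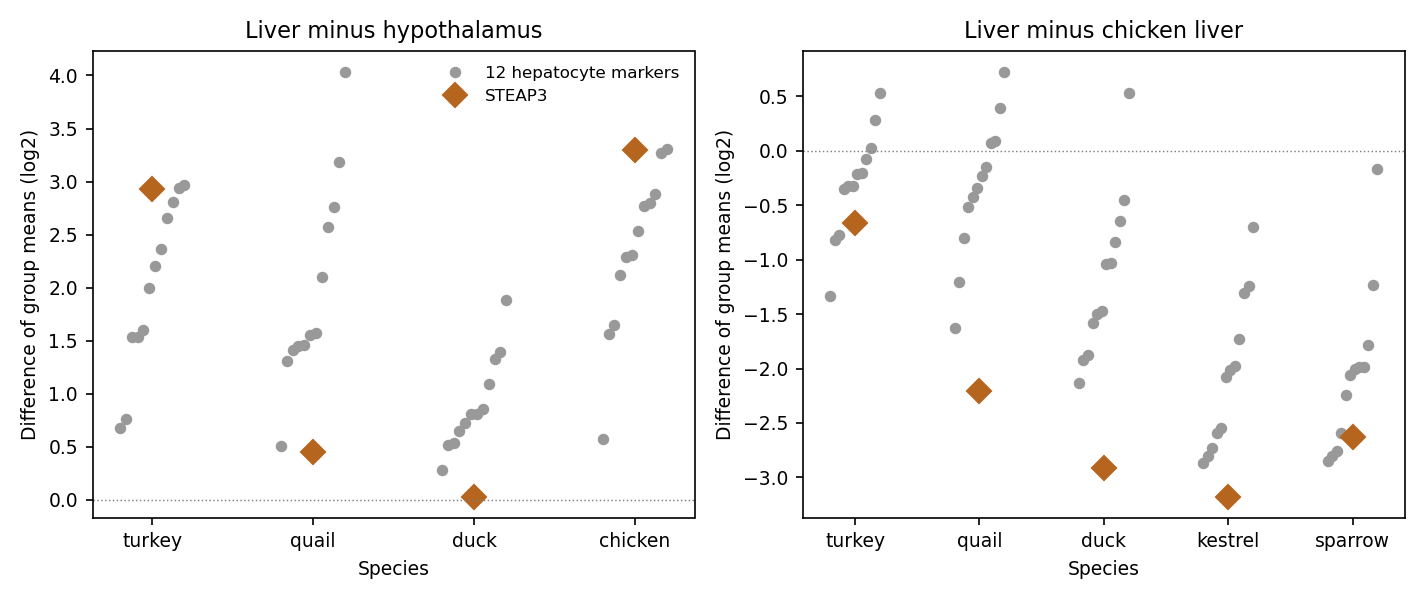
Difference of group means on the log2 scale for STEAP3 (diamonds) and 12 hepatocyte markers (grey points, sorted within a species), as liver minus hypothalamus in 4 birds (left) and as liver of 5 birds minus chicken liver (right). STEAP3 lies near the top of the markers in turkey (2.93) and chicken (3.29) and below all of them in quail (0.45) and duck (0.03). The gene was chosen on the difference shown on the left.

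The fit covered all 6428 genes with STEAP3 among them, so the shares of all genes called are taken over it too, but its own p-value in this comparison is not used. Apart from STEAP3, 72 genes were called higher in chicken liver than in chicken hypothalamus. They were picked on the same contrast that chose STEAP3, and that choice raises their chicken median. As a description they give a wider scale. Their median difference was 1.62 in turkey, 1.42 in quail and 0.50 in duck, against 2.00 in chicken. STEAP3 was above 67 of the 72 in turkey, 12 in quail and 16 in duck. In quail the lower quartile of the 72 genes was 0.76, above the STEAP3 difference of 0.45, and in duck it was 0.06, close to the STEAP3 difference of 0.03.

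The readings of STEAP1 and STEAP2, the other measured members of the family, did not follow this profile. STEAP1, a family member that lacks the cytoplasmic oxidoreductase domain, had 1 spot, with a liver minus hypothalamus difference of 0.37 in turkey, -0.07 in quail, 0.72 in duck and -0.28 in chicken (SE 0.50 to 0.54, limma adjusted p 0.926 to 0.987). Its chicken livers scattered widely, at -0.17, -0.31, 2.25 and 0.45. STEAP2, a ferric and cupric reductase, had differences of 0.32, -0.35, -0.17 and 0.32 in the same order of birds (SE 0.28 to 0.30, limma adjusted p 0.838 to 0.977). Across the 12 group means the correlation with STEAP3 was 0.29 for STEAP2 and 0.23 for STEAP1. The STEAP2 clone was printed on 2 spots, and across 43 arrays these repeat spots correlated at -0.14 and differed by a median of 0.70 on the log2 scale. STEAP3 has no repeat spot against which its own reading could be set.

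Of 67 other genes of iron, haem and copper handling, 38 were measured, and few passed the test. In liver against hypothalamus, 1 was higher in turkey, 0 changed in quail, 0 in duck and 1 was higher in chicken, at backgrounds of 0.685%, 0.56%, 0% and 1.51% of all genes called. At an unadjusted p under 0.05, 5 genes were higher and 1 lower in turkey, 3 higher and 1 lower in quail, 1 higher in duck and 4 higher in chicken, where 5.93%, 8.62%, 5.4% and 7.79% of all genes passed that cut in either direction. Chicken liver against breast muscle gave 2 higher genes (background 1.73%), against abdominal fat 3 higher (2.4%), breast muscle against fat 1 lower (1.15%) and kestrel against sparrow liver 0 (0%, with 256 genes or 3.98% at an unadjusted p under 0.05). The median difference of the 38 genes stayed between -0.08 and 0.18 in the 8 comparisons, against -0.04 to 0.04 for all genes.

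Among the genes of iron supply and uptake, TF, which encodes transferrin, was called higher in liver in all 3 comparisons within chicken. In chicken its log2 ratio was 0.49, 0.54, 1.53 and 0.80 in liver, against -0.33, -0.43, -1.18 and -0.68 in hypothalamus. Liver was higher by 1.50 (SE 0.39, limma adjusted p = 0.0308) and in 16 of 16 pairs, as for 3.48% of all genes. It was also higher in chicken liver than in breast muscle by 2.16 (limma adjusted p = 0.000579; 2.27 without muscle replicate 4 and the other 2 arrays that went against their labels) and than in fat by 1.70 (limma adjusted p = 0.00636). In turkey the difference between liver and hypothalamus was 1.00, in quail 0.79 and in duck 1.09 (SE 0.42 each, limma adjusted p 0.597 to 0.905). All 12 of 12 pairs were higher in liver in turkey, as for 2.69% of all genes, and in duck, where that share was not counted. Of the 38 iron genes, 7 did not overlap in turkey and 2 in duck, in either direction. The quail difference was 0.31 without quail liver replicate 2. In duck, where STEAP3 differed by 0.03, the TF difference was smaller than in chicken by less than its error (-0.40, limma adjusted p = 0.939). TF is the mean of 3 clones that disagree: in chicken liver and hypothalamus 1 clone averaged 1.55 and -1.23 and another 1.03 and -0.68, while the 2 spots of the remaining clone averaged 0.09 and -0.21 in liver, against 0.02 and -0.14 in hypothalamus. The call in chicken was lost without chicken liver replicate 3 or 4 or chicken hypothalamus replicate 3 or 4 (limma adjusted p up to 0.134). SLC11A2, the transporter that takes up the iron STEAP3 reduces, differed between liver and hypothalamus by 0.43 in turkey, -0.93 in quail, 0.24 in duck and 0.41 in chicken, with no adjusted p past the threshold (limma, 0.456 to 0.975).

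Of the genes of storage and export, FTH1, the ferritin heavy chain, differed between liver and hypothalamus by -0.13 in turkey, -0.10 in quail, 0.60 in duck and 0.64 in chicken. SLC40A1, the iron exporter ferroportin, differed by -0.01, -0.16, -0.24 and 0.19 in that order, and CP, the plasma ferroxidase ceruloplasmin, by 0.78, 0.34, 0.35 and 0.41. None passed the test (limma adjusted p 0.704 to 0.998). Without quail liver replicate 2 the quail difference was -0.68 for FTH1 and 0.20 for SLC40A1, whose sign turned. TMPRSS6, a hepatic serine protease that restrains hepcidin expression in mammals, had log2 ratios of 1.97, 1.76, 1.19 and 1.96 in turkey liver, against 0.14, -0.43 and 0.00 in turkey hypothalamus. The groups were clearly apart, by 1.81 (SE 0.36, limma adjusted p = 0.00344). Its difference was 0.62 in quail, 0.18 in duck and 0.99 in chicken (limma adjusted p 0.185 to 0.978), and it was higher in chicken liver than in fat by 1.30 (limma adjusted p = 0.0202). Against breast muscle it differed by 1.12 (limma adjusted p = 0.0886), and by 1.26 without the 3 arrays that went against their labels (limma adjusted p = 0.0428), which makes 3 called genes in place of 2 there. The turkey call was lost without turkey hypothalamus replicate 2 (limma adjusted p = 0.0815), and the one against fat in 4 of 8 fits without 1 array (up to 0.153).

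Of the haem genes, HPX, the plasma haem carrier hemopexin, was higher in chicken liver than in fat by 1.64 (SE 0.38, limma adjusted p = 0.00789), or 0.0558 without fat replicate 1; TF against fat lost its call there too (0.0678). Its liver minus hypothalamus difference was 0.97 in turkey, 1.27 in quail, -0.25 in duck and 1.20 in chicken (limma adjusted p 0.134 to 0.975). One of its 2 clones carried the difference, averaging 0.75 in chicken liver, against -1.67 in chicken hypothalamus, while the other averaged 0.18 and 0.20. In the fit by clone the first was called higher in liver in chicken by 2.42 (limma adjusted p = 0.000805). It was also called in turkey by 2.36 (limma adjusted p = 0.00508) and in quail by 1.90 (limma adjusted p = 0.0453). In duck it averaged -1.56 in liver and -1.24 in hypothalamus and was not called. HMOX1, the haem oxygenase that opens the haem ring, differed by 0.60, 1.02, -0.18 and 0.21 in turkey, quail, duck and chicken (limma adjusted p 0.125 to 0.975). Without quail liver replicate 2 the quail difference was 1.01 for HPX and 1.07 for HMOX1. PGRMC1, a haem-binding membrane protein, was lower in breast muscle than in fat by -1.30 (SE 0.25, limma adjusted p = 0.00507) and higher in chicken liver than in muscle by 0.95 (limma adjusted p = 0.0366), and the call against muscle was lost in 6 of 8 fits without 1 array (up to 0.24). Without the 3 arrays that went against their labels these differences were -1.39 (limma adjusted p = 0.00209) and 1.04 (limma adjusted p = 0.0297). Its clones disagreed in sign: between turkey liver and hypothalamus 1 of 5 clones differed by -3.72, and the gene mean by -0.93. The liver minus hypothalamus differences of the named iron genes were also set against the chicken ones. None departed past the threshold in turkey, quail or duck (limma adjusted p 0.791 or more). Over all genes but STEAP3 that comparison called 0 in turkey, 0 in quail and 1 in duck. The absence of calls is therefore not particular to these genes. Unadjusted limma p was under 0.05 for PGRMC1 in turkey (0.00937), SLC11A2 (0.0173) and HMOX1 (0.0488) in quail and HPX in duck (0.0135).

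**Figure D4:**
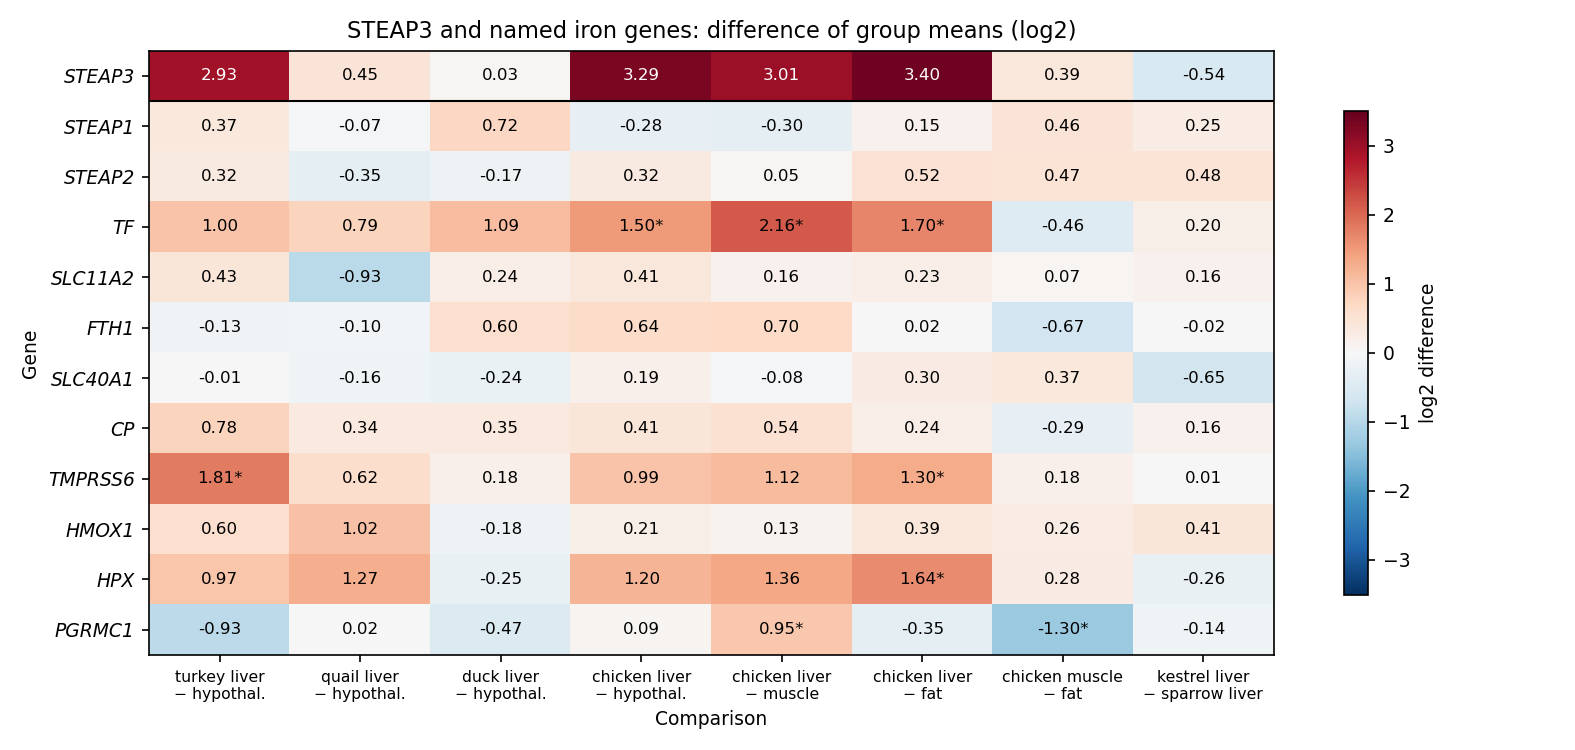
Difference of group means (log2) of STEAP3 and 11 named iron genes in 8 comparisons, red where the first-named group was higher and blue where it was lower. An asterisk marks a limma adjusted p under 0.05. STEAP3 carries none: its test is used only in muscle against fat and kestrel against sparrow liver, and it passed in neither. Its values in turkey and in the chicken liver comparisons (2.93 to 3.40) exceed those of the other genes, among which TF reaches 2.16. The values are gene means, and STEAP3 is a single clone. By clone, 1 TF clone reached 3.80 in chicken liver minus muscle, above STEAP3 (3.01), and another 2.58. In quail HPX (1.27) and in duck TF (1.09) are highest, above STEAP3 (0.45 and 0.03). Without quail liver replicate 2, HMOX1 (1.07) is highest in quail and HPX is at 1.01.

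The genes whose 12 group means followed STEAP3 most closely were ranked by Pearson correlation, a description over points that share arrays, reference and clones. The median correlation over the other 6427 genes was -0.02, 57 genes reached 0.8 and 6 reached 0.9. The closest was A2M, the plasma protease inhibitor alpha-2-macroglobulin, at 0.936, then ORM1, the acute phase protein orosomucoid, at 0.928. FGA, a fibrinogen chain, reached 0.915, APOB, the apolipoprotein of very low density lipoprotein, 0.907, EHHADH, a peroxisomal fatty acid oxidation enzyme, 0.905, and SERPIND1, heparin cofactor II, 0.900. VRK3, a member of the vaccinia-related kinase family, had 0.899, GC, the vitamin D binding protein, 0.895, SPIA4 also 0.895, and FMO4, a flavin-containing monooxygenase, 0.894. Most of these encode plasma proteins or enzymes known from liver. In quail the liver minus hypothalamus difference was 0.45 for STEAP3 (SE 0.37). It was close to that for FMO4 (0.52), VRK3 (0.58), A2M (0.76) and ORM1 (0.80), and ran from 1.24 (SPIA4) to 2.58 (GC) for the remaining genes. In chicken, turkey, quail and duck it was 2.92, 2.04, 0.80 and 0.15 for ORM1. For VRK3 it was 2.06, 1.17, 0.58 and 0.03. Both genes were picked for following STEAP3 over the same group means, so their fall in quail and duck is description. ORM1 came nearest to STEAP3 in quail liver, at -1.14, and GC in duck liver, at -1.69. ORM1 was below 0 in turkey liver, at -0.41, where STEAP3 was 0.42.

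**Figure D5:**
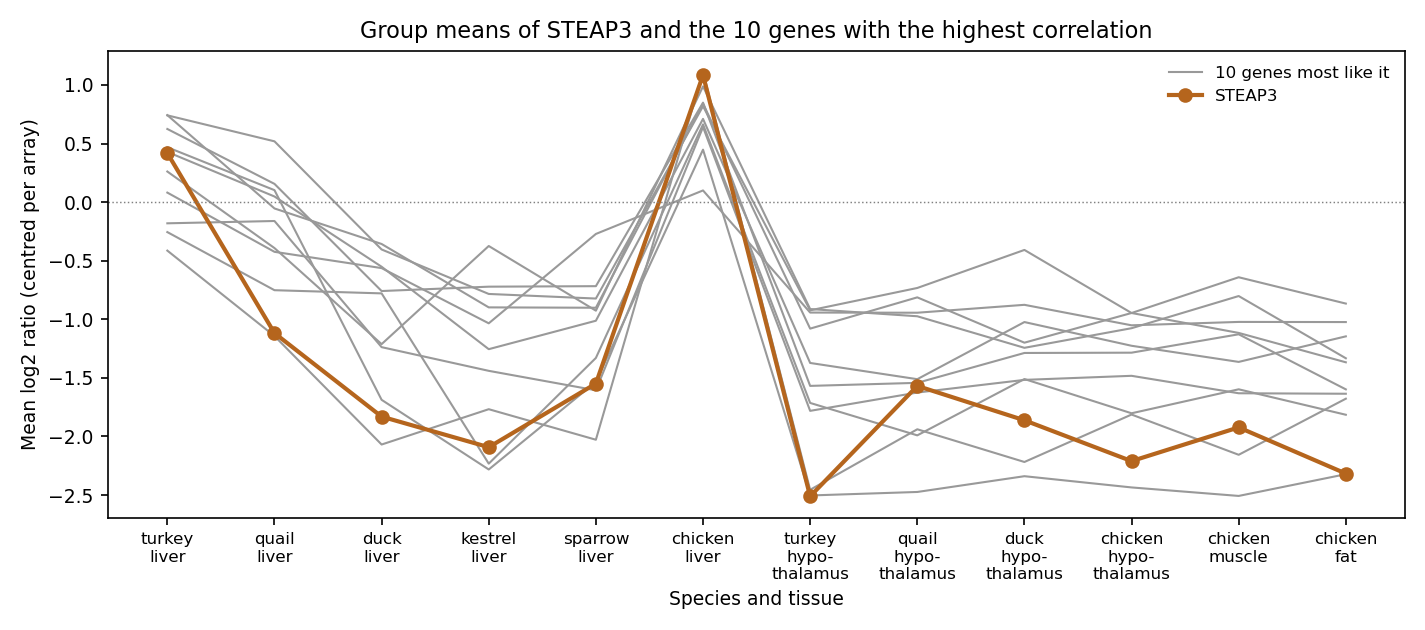
Mean log2 ratio (centred per array) of STEAP3 and of the 10 genes with the highest correlation with it over 12 groups of species and tissue; lines join groups for reading only. All 11 genes peak in chicken or turkey liver, and STEAP3 is at -1.12 in quail liver, close to ORM1 (-1.14) and below the other 9.

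The spots around STEAP3 on the slide and the genes beside it in the genome were also read. The median of the 8 spots around the STEAP3 spot averaged 0.15 in turkey liver, 0.01 in quail liver, -0.24 in duck liver and -0.04 in chicken liver. In hypothalamus it averaged -0.36 in turkey, -0.004 in quail, -0.53 in duck and -0.20 in chicken. Over all arrays it stayed between -0.91 and 0.87. In turkey liver it ran from -0.33 to 0.87, a range that holds every STEAP3 value there (0.27 to 0.63). In chicken liver it ran from -0.17 to 0.23, below STEAP3 (0.73 to 1.56). A local effect on the slide was not tested. The median of its print block of 400 spots stayed between -0.79 and 0.29. Of the 5 genes on either side of STEAP3 in the chicken assembly GRCg7b, SCTR, TMEM37, DBI and MARCO were measured. Their chicken liver means were -0.26, -0.26, 0.43 and -0.10, against -0.29, -0.34, -0.02 and -0.55 in chicken hypothalamus. In chicken liver the erythrocyte list (5 of 15 measured) summed to 1.90 to 2.65 on the log2 scale, against 1.57 to 2.88 in chicken hypothalamus. The macrophage and leukocyte list (9 of 15 measured) summed to 2.88 to 3.51 in chicken liver, against 2.64 to 3.49 in chicken hypothalamus. Both lists overlapped between the 2 chicken tissues, and whether blood or immune cell content bears on STEAP3 was not tested.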

How the data were processed

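The deposited values are linear ratios, 1 per spot and array, read as Cy3 sample over Cy5 chicken reference because liver, muscle and neuronal genes were high in their own tissues; the labels do not state the numerator. Per the labels' protocols the Cy5 pool was made up afresh for every set of hybridisations, and no dyes were swapped. Image analysis, background correction and the authors' normalization were not given in the sources used here. Without spot intensities signal over background is unknown, so the number of arrays limits precision.

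Ratios were put on the log2 scale and centred on each array's median (0.535 to 1.83 as linear ratios). Spots were averaged to 18547 clones and clones to 6428 genes. Of the spots, 10601 carried 1 symbol of the platform annotation, 10455 of these matched the current chicken gene table, and 8599 are unnamed here. A model with 1 mean per group (12) was fitted to all arrays with limma 3.58.1 (R 4.3.3, eBayes), p-values were adjusted by Benjamini-Hochberg over all genes, and the fit was tested on simulated data; plots used Python 3.11.15 and matplotlib 3.10.9. Both STEAP3 tests were repeated as exact permutation tests. No label ties an array to a bird of its own, so p-values reflect spread between samples, which may be technical. Same-numbered arrays deviated together, with every correlation above 0.1, in muscle against fat and in turkey liver against hypothalamus. Same-numbered kestrel and sparrow livers, which come from different birds, correlated at 0.43, 0.17 and 0.09. The correlations therefore do not show that samples of 1 number share a bird. Reported values come from the fit without pairing, and a fit with replicate blocks was an alternative.

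STEAP3, the iron and marker lists and the alternatives were chosen with earlier results of these data known. Named genes are STEAP3, the measured STEAP family, TF, SLC11A2, FTH1, SLC40A1, CP, HMOX1, every listed iron gene that was called, and the 10 genes most correlated with STEAP3. STEAP4 and TFRC were not analysed here. Print blocks, array scale, quantile normalization, robust variance, replicate blocks, omitted arrays and clones in place of genes were tried as alternatives.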

Additional observations from a re-analysis of the deposited data

Results flagged for a closer look

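In 3 of 84 groups of 4 arrays examined (12 genes, 7 groups), 1 array lay far from the other three relative to their range, where chance gives about 1 in 20. STEAP1 was 0.0357 on quail liver replicate 4, against 1.08 to 1.22 on the other quail livers. STEAP2 was 0.13 on quail liver replicate 3, against -0.41 to -0.40 on the others. FTH1 was 0.94 on duck liver replicate 2, against -0.81 to -0.57 on the other duck livers. STEAP3 itself had no such array in its 7 groups of 4.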

How the results depend on the processing

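Of 232 STEAP3 values under alternatives, 227 moved by less than the pooled SD of 0.49. That count includes values that could not move. Robust variance and permutation leave a difference unchanged, as does omitting the 3 arrays that went against their labels where a difference does not use them. The count is therefore not a measure of stability. With arrays scaled to an equal median absolute deviation the chicken liver minus hypothalamus difference became 4.07, and the hypothalamus differences from chicken became 0.53 in turkey (where the sign turned, as it also did without turkey hypothalamus replicate 3, at 0.16), 1.25 in quail and 1.36 in duck; with quantile normalisation that of duck was 0.88, and without duck hypothalamus replicate 1 it was -0.14. The cause was not tested. Leaving out each replicate gave STEAP3 differences of 3.13 to 3.41 in chicken, 2.47 to 3.23 in turkey, 0.28 to 0.64 in quail and -0.26 to 0.52 in duck for liver minus hypothalamus, 0.17 to 0.68 for muscle minus fat and -0.84 to -0.32 for kestrel minus sparrow. STEAP3 has 1 clone, so the planned fit of each clone had no second value.

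Iron genes called in chicken liver minus hypothalamus numbered 3 with equal deviation, 3 with quantile normalisation, 2 centred within print blocks and 3 by clone. By clone they numbered 3 in turkey and 1 in quail. These were clones of TF and HPX in chicken, TMPRSS6 and HPX in turkey and HPX in quail, all higher in liver. A PGRMC1 clone was lower in liver, by -1.91 in chicken (limma adjusted p = 0.0022) and -3.72 in turkey (limma adjusted p = 1.7e-07). Without centring 1 was called in liver minus muscle and 0 in muscle minus fat. Leaving out each replicate, the calls ran from 0 to 2 in chicken, 0 to 1 in turkey, 1 to 2 against muscle and 0 to 3 against fat. Among named genes, PGRMC1 in liver minus muscle also lost its call uncentred (adjusted p = 0.371), with equal deviation (0.0503) and within print blocks (0.051), and in muscle minus fat uncentred (0.0698). Over the settings and omitted arrays other than clones, all genes called ranged from 63 to 221 in chicken (97 in the reported fit), 15 to 63 in turkey (44), 2 to 44 in quail (36), 0 to 3 in duck (0), 59 to 179 in liver minus muscle (111), 100 to 245 in liver minus fat (154) and 18 to 154 in muscle minus fat (74); in kestrel minus sparrow 0 were called under each. With the replicate number as a block, STEAP3 differed by 2.90 in turkey and 0.39 in muscle minus fat, and no call of a named iron gene and no count of iron genes changed; all genes called numbered 40 in turkey and 77 in muscle minus fat.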
